A study of Mus musculus with 11 samples.

Results

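Syt4, Prph, Gdnf and Cacng5 are 4 genes whose RNA was higher in striatal cells given a knockdown vector against the transcription factor NF-Y, and they are described here sample by sample. They were chosen by these measured counts, from the difference between the knockdown and the control samples, and make up 4 of the 1767 genes in the deposited striatal RNA-seq table. Every gene of that table has a deposited p-value under 0.05 for the same difference. The values of the 4 genes are therefore given as a description, without a test.

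NF-Y is a trimer of NF-YA, NF-YB and NF-YC that binds the CCAAT box found in many promoters, and the vector of the knockdown group targets NF-YA and NF-YC. The mice were wild-type B6 males, and at an age of 6 weeks they received adeno-associated virus in the left and the right striatum. The vector carried EmGFP and artificial miRNAs driven by the CAG promoter, which is active in many cell types and not only in neurons. Striata were taken 3 weeks later and dissociated with papain, and EmGFP-positive, PI-negative cells were sorted for RNA-seq. The NT2 control group received a non-targeting miRNA (6 samples, numbered 3, 5, 7, 9, 21 and 23). The NF-YA/YC knockdown group received the miRNAs YA-8 and YC-2 (5 samples, numbered 4, 6, 8, 10 and 22). Both groups thus carried virus and EmGFP, and the design gives 6 and 5 injected mice, as many as there are samples.

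The 4 genes have different roles in nerve cells. Syt4 is an atypical synaptotagmin of dense-core and other secretory vesicles that has lost calcium binding in one of its calcium-sensing domains and is known as a depolarization-induced gene. Cacng5 is an auxiliary transmembrane subunit that associates with AMPA-type glutamate receptors. Prph, or peripherin, is an intermediate filament protein best known from peripheral and autonomic neurons and from injured neurons, and Gdnf is a secreted neurotrophic factor that signals through the receptor Ret and its coreceptor Gfra1. In the adult striatum, Gdnf is known to be made mainly by interneurons.

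Counts are estimated counts per gene as deposited, and division by a TMM factor per sample gave normalized counts. The whole table held between 1581757 and 3141324 counts per control sample and between 1954949 and 3010153 per knockdown sample. The table is a selection of genes, so that the full depth is larger and was not analysed here. With the authors' scaling factors in place of TMM, the log2 fold changes of the listed genes shifted by a median of -0.13, and the fold changes given here use TMM unless stated. The median log2 fold change of all listed genes was -0.13 with TMM.

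Of the NF-Y subunits, Nfyc was analysed, and Nfya and Nfyb were not analysed here. Nfyc had 975 normalized counts in knockdown sample 4, 840.4 in sample 6, 887 in sample 8, 603 in sample 10 and 722 in sample 22. In the control samples the lowest Nfyc value was 733, the median 898 and the highest 1206. The groups overlapped, with only knockdown samples 10 and 22 below every control sample. The log2 fold change of Nfyc was -0.19 ± 0.15 (SE, n = 6 and 5) with an adjusted p of 0.255 in edgeR's quasi-likelihood test, and -0.32 ± 0.14 with an adjusted p of 0.0531 with the authors' scaling factors. With the glial marker score described below as a term, it was -0.53 ± 0.17 with an adjusted p of 0.0804. Over all alternatives, those leaving out a sample included, the adjusted p of Nfyc lay between 0.0531 and 0.522.

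In normalized counts, every knockdown sample lay above every control sample for 4 of the 4 genes, with TMM and with the authors' factors. Among all listed genes this held for 202 of 1767 (11.4%) with TMM and for 122 with the authors' factors. Because the genes were selected on this difference, nothing is read from that comparison. The lowest knockdown sample exceeded the highest control sample 2.86-fold for Syt4. The same ratio was 1.60 for Cacng5. For the other 2 genes it was 4.14 (Prph) and 4.34 (Gdnf), and both were near the counting floor in the control samples.

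**Figure D1:**
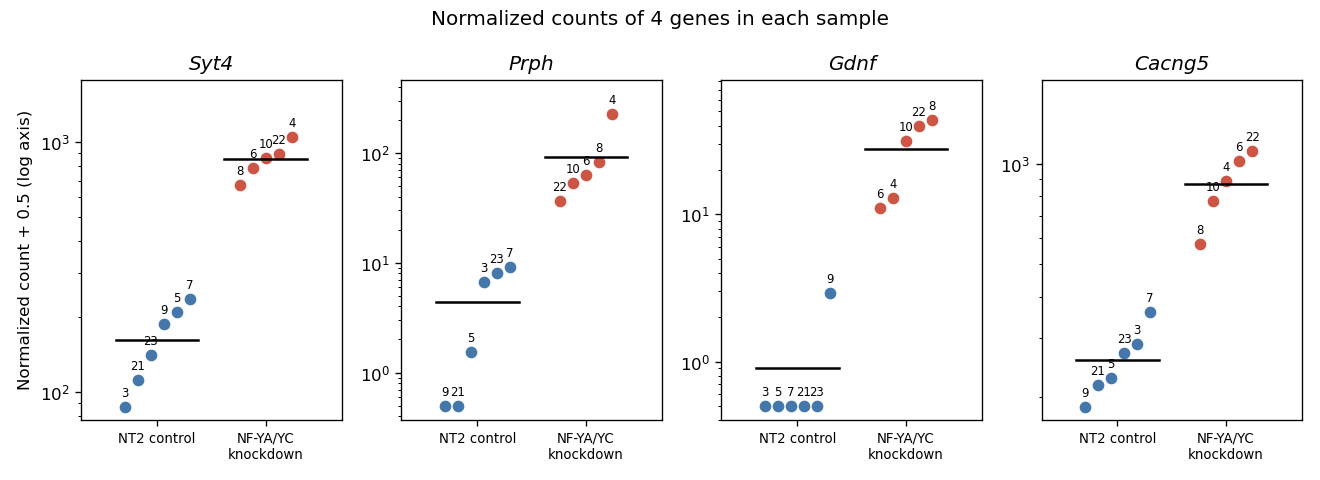
Normalized counts of Syt4, Prph, Gdnf and Cacng5 in each sample, with 0.5 added so that a count of 0 can be drawn on the log axis. Each point is 1 sample with its sample number, and black lines mark group means (n = 6 NT2 control, n = 5 NF-YA/YC knockdown). The points of the groups do not overlap for any of these genes, and 5 of 6 control samples are at 0 for Gdnf.

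Syt4 (Entrez 20983) lies on the minus strand at chr18:31597462-31607069 in the mm9 coordinates of the table. The control samples 3, 5, 7, 9, 21 and 23 held 56, 200, 271, 231, 137 and 149 counts of Syt4, and all 11 Syt4 values were whole numbers. The knockdown samples 4, 6, 8, 10 and 22 held 836, 747, 545, 971 and 1093 counts. Syt4 was thus well above the floor in every library, and the lowest control sample, number 3, was also the library with the smallest TMM factor (0.645).

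After normalization, Syt4 ranged in the control samples from 86.8 in sample 3 to 235 in sample 7, with a median of 163. In the knockdown samples it was 1040.4 in sample 4, 890.4 in sample 22, 865 in sample 10, 788 in sample 6 and 670.3 in sample 8. The knockdown samples therefore spanned 1.55-fold. In that order, the 95% counting intervals of samples 22, 10 and 6 overlapped from neighbour to neighbour, whereas sample 4 stood above and sample 8 below their nearest neighbour by more than counting error. Group means were 161 ± 57.8 (SD, n = 6) and 851 ± 136 (SD, n = 5), and the fitted log2 fold change of Syt4 was 2.39 ± 0.24 (SE). The coefficient of variation of Syt4 was 35.9% in the control and 16.0% in the knockdown samples. The medians over the 1575 listed genes with a mean normalized count of at least 20 were 21.3% and 17.0%.

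In the GENCODE M21 annotation, Syt4 is overlapped by 1 gene on the opposite strand, Gm26658, over 7089 bases of the whole genes, introns included. The merged exons of Syt4 are 3892 bases long, and overlap between exons was not analysed. The library kits did not mark the strand, so that reads from any shared exon bases could not be told apart. No gene overlapped Prph, Gdnf or Cacng5.

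The exocytosis list of 47 genes, made of synaptotagmins, SNARE proteins and dense-core vesicle proteins, had 2 genes in the table beside Syt4. Syt6, another synaptotagmin, rose by 1.45 ± 0.33 (log2 ± SE, adjusted p = 0.0104 in edgeR), from 84.7 to 231 mean normalized counts. Cpe, the carboxypeptidase that processes neuropeptides in dense-core vesicles, fell by 0.96 (SE 0.33, adjusted p = 0.0304 in edgeR), from 35628 to 18327. The median of the 2 was 0.25. In the fit with the glial marker score as a term, Syt6 was called higher at 1.87 ± 0.44 (log2 ± SE, adjusted p = 0.0401 in edgeR), and Cpe had a log2 value of 0.02 and was not called. Over all listed genes that fit called 64 higher (3.62%) and 15 lower (0.849%).

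Cacng5 (Entrez 140723) lies on the minus strand at chr11:107735919-107776369 (mm9). In the control samples 3, 5, 7, 9, 21 and 23 its counts were 186, 219.5, 416, 229, 267 and 288.5. In the knockdown samples 4, 6, 8, 10 and 22 they were 714, 966, 469, 868 and 1341. Among the 4 genes Cacng5 had the narrowest gap between the groups, since knockdown sample 8 was close to control sample 7.

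Normalized counts of Cacng5 in the control samples ran from 185 in sample 9 to 360.02 in sample 7, with a median of 249. In the knockdown samples they were 1093 in sample 22, 1019 in sample 6, 889 in sample 4, 773 in sample 10 and 577 in sample 8. Counting intervals overlapped between neighbours from sample 22 down to sample 10, while sample 8 lay below sample 10 by more than counting error. The means were 258 ± 62.3 (SD, n = 6) and 869.9 ± 205 (SD, n = 5), and the log2 fold change of Cacng5 was 1.76 ± 0.20 (SE). Its coefficients of variation, 24.2% in the control and 23.5% in the knockdown samples, were nearly equal.

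Of 33 genes for calcium channel subunits, AMPA receptor subunits and their auxiliary proteins, 3 were in the table beside Cacng5, and 3 of these 3 were called higher, with a median log2 fold change of 1.34. Over the whole table, 689 of 1767 genes (39.0%) were called higher at an adjusted p under 0.05 in edgeR and 377 (21.3%) lower. With the authors' factors the split was 569 higher and 836 lower. Over samples 3 to 10 alone (n = 4 and 4), 150 genes were called higher and 57 lower. Cacna1h, a pore-forming subunit of T-type calcium channels, rose by 1.72 ± 0.36 (log2 ± SE, adjusted p = 0.00823 in edgeR), from 121 to 399 mean normalized counts. Cacna2d3, an α2δ auxiliary subunit of voltage-gated calcium channels, rose by 1.34 ± 0.31 (adjusted p = 0.0114 in edgeR), from 109 to 274. Cnih3, a cornichon protein that associates with AMPA receptors, rose by 1.26 ± 0.35 (adjusted p = 0.0182 in edgeR), from 33.7 to 81.2. When the glial marker score was a term, 1 of these 3 genes was called higher (3.62% of all listed genes in that fit), with log2 values of 1.64 for Cacna2d3 (adjusted p = 0.0448 in edgeR), 1.71 for Cacna1h (adjusted p = 0.0658) and 1.95 for Cnih3 (adjusted p = 0.0531).

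Prph (Entrez 19132) lies on the plus strand at chr15:98885605-98889409 (mm9). The control samples 3, 5, 7, 9, 21 and 23 held 4, 1, 10, 0, 0 and 8 counts of Prph, which sum to 23. A count of 0 allows up to 3 counts per library, or between 2.43 and 4.65 normalized counts over the control samples, and 3 of 6 control samples were at or under this floor. The knockdown samples 4, 6, 8, 10 and 22 held 182, 59, 67, 59.5 and 44 counts. The highest counts of Prph (182) and Gdnf (48) are thus under 200, the minimum set as an expression filter in the methods, which the table does not apply.

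Normalized counts of Prph reached 8.65 in the highest control sample, number 7, and the control median was 3.62. In the knockdown samples they were 226 in sample 4, 82.4 in sample 8, 62.2 in sample 6, 53.0 in sample 10 and 35.8 in sample 22, a span of 6.32-fold. Sample 4 stood apart from sample 8 by more than counting error (195 to 262 against 63.9 to 105), and from sample 8 down to sample 22 the intervals of neighbours overlapped. The means were 3.90 ± 3.99 (SD, n = 6) and 92.0 ± 77.0 (SD, n = 5). Summed over the groups, the rate of Prph counts was 22.97-fold higher in the knockdown samples, with an exact 95% counting interval of 15.1 to 36.6. Intervals and floors here cover counting error only, since amplified reads without molecular identifiers are not independent molecules.

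The fitted log2 fold change of Prph was 4.57 ± 0.79 (SE). Without knockdown sample 4 it was 3.91 ± 0.74. Sample 4 also had the lowest glial marker score, and with that score as a term the log2 fold change of Prph was 2.81 ± 0.97.

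Of 18 intermediate filament genes, 1 beside Prph was in the table, and it was called higher, as were 39.0% of all listed genes. This was Lmna, which encodes the nuclear lamins A and C, with a rise of 0.58 ± 0.16 (log2 ± SE, adjusted p = 0.0161 in edgeR) from 1504 to 2249 mean normalized counts. Fitted beside the glial marker score, Lmna had 0.28 (adjusted p = 0.292 in edgeR), and 0 genes of this list were called (3.62% of all listed genes higher in that fit). Of 10 markers of peripheral or autonomic neurons, Prph was the only gene in the table, so that the table gives no other marker of these cells to set beside it.

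Among 26 genes linked to neuronal injury and its stress response, 5 were in the table and 5 were called higher, beside 39.0% of all listed genes, with a median log2 fold change of 0.62. Gap43, a growth cone protein, rose by 1.30 ± 0.21 (log2 ± SE, adjusted p = 0.00194 in edgeR), and Trib3, a pseudokinase of the integrated stress response, by 1.03 ± 0.26 (adjusted p = 0.0146 in edgeR). Flrt3, Cdkn1a and Ddit3 rose by 0.62, 0.57 and 0.48. Fitted beside the glial marker score, 2 of the 5 were called higher (3.62% of all listed genes in that fit), Gap43 at 1.12 and Trib3 at 1.65 on the log2 scale. Of those not called, Flrt3 had 0.65 (adjusted p = 0.108 in edgeR), Cdkn1a 0.22 (adjusted p = 0.331 in edgeR) and Ddit3 0.31 (adjusted p = 0.153 in edgeR).

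Gdnf (Entrez 14573) lies on the plus strand at chr15:7761011-7787575 (mm9). In the control samples its count was 0 in samples 3, 5, 7, 21 and 23 and 3 in sample 9, so that 6 of 6 control samples were at or under the floor of 3 counts per library. The knockdown samples 4, 6, 8, 10 and 22 held 10, 10, 35, 35 and 48 counts. Gdnf was thus detected above the floor in 5 of 5 knockdown samples, but at low counts.

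Normalized counts of Gdnf were 43.0 in knockdown sample 8, 39.1 in sample 22, 31.2 in sample 10, 12.4 in sample 4 and 10.5 in sample 6. The counting intervals of each pair of neighbours in this order overlapped, among them 21.7 to 43.3 for sample 10 and 5.97 to 22.9 for sample 4. Samples 8 and 22, with 29.98 to 59.9 and 28.8 to 51.8, lay above samples 4 and 6 by more than counting error. The knockdown mean was 27.3 ± 15.0 (SD, n = 5), and the control mean of 0.405 ± 0.991 (SD, n = 6) rests on sample 9 alone. With 3 counts in the control and 138 in the knockdown samples, the rate of Gdnf was 59.0-fold higher, with an exact 95% counting interval of 19.8 to 289.5.

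The fitted log2 fold change of Gdnf, 5.54 ± 0.79 (SE), depends on the prior count that edgeR adds. Without control sample 9, which leaves every control sample at 0, the fitted value was 7.79, which is no bound. Set against the floor of 3 counts per library, Gdnf was then at least 8.74-fold higher in the knockdown samples. With the glial marker score as a term the log2 fold change was 6.83 ± 1.14, and over samples 3 to 10 alone (n = 4 and 4) it was 4.84 ± 0.95.

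Of 37 neurotrophic factors, receptors and related proteins, 8 were in the table beside Gdnf. Of these 8, 1 was called higher and 4 lower, beside 39.0% and 21.3% of all listed genes, and the median log2 fold change was -0.21. Vgf, a secreted neuropeptide precursor induced by neurotrophins, rose by 2.02 ± 0.52 (log2 ± SE, adjusted p = 0.0148 in edgeR), from 31.9 to 131 mean normalized counts. The 4 called lower were Ptn and Mdk, heparin-binding growth factors, Cntfr, the receptor subunit for CNTF, and Sort1, a sorting receptor. Their log2 fold changes were -0.75, -0.69, -0.71 and -0.32. Bdnf had 6.02 and 18.05 mean normalized counts in control and knockdown samples, with an adjusted p of 0.104 in edgeR, and Ngfr had 7.67 and 23.4, with an adjusted p of 0.0674 in edgeR. With a minimum highest count of 200, 2 of this list were called lower (13.5% of all genes above that minimum). In the fit with the glial term 0 were called lower (0.849% of all listed genes), with -0.28 for Ptn, -0.15 for Mdk, -0.43 for Cntfr and -0.20 for Sort1, while Vgf had a log2 fold change of 3.08. The Gdnf receptor genes Ret and Gfra1 were not analysed here.

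Activity-regulated genes were given as a further list because Syt4 and Vgf are known to respond to depolarization. Of 30 genes, 6 were in the table, 2 were called higher and 0 lower in edgeR, beside 39.0% and 21.3% of all listed genes, and the median log2 fold change was 0.14. Vgf is described above, and Rgs2, a regulator of G-protein signalling, rose by 0.42 ± 0.12 (log2 ± SE, adjusted p = 0.0207 in edgeR). The other 4 genes were not called, with log2 fold changes of 1.496 for Bdnf (adjusted p = 0.104 in edgeR), -0.15 for Junb (adjusted p = 0.306 in edgeR), -0.25 for Jund (adjusted p = 0.0920 in edgeR) and -0.34 for Egr2 (adjusted p = 0.0937 in edgeR). With the authors' scaling factors 2 genes of this list were called lower (47.3% of all listed genes in that fit). In the fit with the glial term 1 was called higher (3.62% of all listed genes), while Rgs2 had 0.18 (adjusted p = 0.390 in edgeR).

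To compare levels between the genes, mean normalized counts were divided by the length of the merged exons in kb. In the control samples Cacng5 had the highest level, 67.3 ± 16.3 per kb (SD), followed by Syt4 with 41.4 ± 14.9, Prph with 1.95 ± 1.99 and Gdnf with 0.110 ± 0.270. In the knockdown samples the order was the same, with 227 ± 53.4 per kb for Cacng5, 219 ± 35.0 for Syt4, 46.0 ± 38.5 for Prph and 7.42 ± 4.09 for Gdnf. Cacng5 and Syt4 thus differed by less than their SD after knockdown. By fitted log2 fold change the order was the reverse, and Gdnf ranked 3, Prph 9, Syt4 53 and Cacng5 131 among the 1767 genes.

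**Figure D2:**
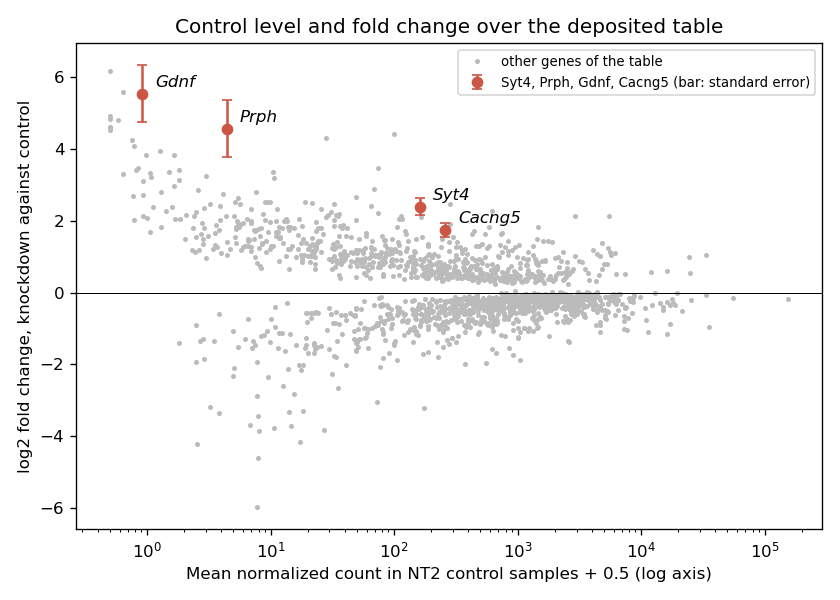
Mean normalized count in the NT2 control samples (0.5 added, log axis) against the fitted log2 fold change of knockdown against control for each listed gene. Red points mark Syt4, Prph, Gdnf and Cacng5 with the standard error as bars. Gdnf and Prph lie at the left, near the counting floor, where fitted fold changes of the other listed genes are widely spread, and Syt4 and Cacng5 lie at 161 and 258 counts.

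The order of the knockdown samples differed between the genes. Sample 8 was the lowest for Syt4 and Cacng5 and the highest for Gdnf, and sample 4 was the highest for Syt4 and Prph. Sample 22 was the highest for Cacng5 and the lowest for Prph. In the control samples, number 7 was the highest for Syt4, Prph and Cacng5, and number 9, the lowest for Cacng5 and at 0 for Prph, was the only one with Gdnf counts.

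How far the genes moved together within the groups was measured by Pearson's r of log2(normalized count + 0.5), after centring on the group mean, over the 11 samples. Among the 6 pairs, r was 0.53 for Prph with Cacng5, 0.18 for Syt4 with Cacng5, 0.10 for Syt4 with Gdnf and 0.04 for Syt4 with Prph. It was negative for Gdnf with Cacng5 (-0.56) and with Prph (-0.53). The sign differed between the groups for Prph with Cacng5, with 0.91 over the 6 control samples, where Prph was near the counting floor, and -0.25 over the 5 knockdown samples. It also differed for Syt4 with Gdnf (0.26 and -0.43) and for Syt4 with Prph (-0.02 and 0.39). Syt4 with Cacng5 had 0.06 over the control and 0.59 over the knockdown samples. The samples share their scaling factor across genes, and 5 of the control values of Gdnf are equal at 0, so that these values are a description of few points.

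By the same measure, the 3 listed genes most like Syt4 were 4930524L23Rik (r = 0.90), Crim1 (0.90) and Mmp11 (0.84). For Cacng5, Fgfr4 (0.82) and Ndst1 (0.82) are given. For Prph they were Reep3 (0.88), Rnf103 (0.87) and Mapre2 (0.84), and for Gdnf 2810055F11Rik (0.92), A330093E20Rik (0.81) and Zw10 (0.80). None of the genes named here stood in more than one of these lists. Likeness within the groups did not go with the direction between them, since the fitted log2 fold change was -1.56 for 4930524L23Rik and -0.53 for Crim1, but 1.01 for Mmp11. Fgfr4 and Ndst1 had positive values (1.98 and 0.90), and the genes for Prph (-0.24, -0.18 and -0.20) and Gdnf (-0.51, -1.38 and -0.35) negative ones. These are the highest of 1574 or more values of r, each over 11 samples.

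The sort was for EmGFP, and markers of other cell types were followed beside the 4 genes. Of 44 astrocyte, oligodendrocyte and microglia markers, 9 were in the table, 7 were called lower in edgeR (21.3% of all listed genes) and 0 higher, and none of the 9 was at 0 in any sample. Their summed normalized counts were 56167 in knockdown sample 4, 54697 in sample 6, 61604 in sample 8, 65827 in sample 10 and 69399 in sample 22. In the control samples the sum ran from 64617 in sample 3 to 137043 in sample 21, with a median of 97805. The groups overlapped through control sample 3, and P2ry12, a purinergic receptor of microglia, was the most abundant of the 9 by count.

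Of 14 astrocyte genes, 6 were listed and 6 were called lower, with a median log2 fold change of -1.24. Of 15 oligodendrocyte lineage genes 2 were listed and 1 was called lower (median -0.42), and of 15 microglia genes 1 was listed (-0.35) and 0 were called. Of 12 vascular markers, 9 were in the table and 6 were called lower (21.3% of all listed genes), with a median of -0.60. In the fit with the glial term 2 were called lower (0.849% of all listed genes), Slc22a8 at -1.08 and Car4 at -1.28, and the median was -0.74. The summed normalized counts of the 9 vascular genes, with Slco1a4 the most abundant, were 5795, 7742, 5881, 5972 and 4527 in knockdown samples 4, 6, 8, 10 and 22, and from 6951 to 11762 in the control samples. The glial marker score, the mean centred log2 level of the 9 glial genes, was 0.40 ± 0.57 (SD, n = 6) in the control and -0.48 ± 0.35 (SD, n = 5) in the knockdown samples. With this score as a term, 64 genes were called higher and 15 lower. Syt4 then had a log2 fold change of 2.64 ± 0.36 and Cacng5 of 1.65 ± 0.28. The 9 glial genes are in the table because of a deposited p-value under 0.05 for the same group difference. The score was thus selected on that difference. A fit with it as a term cannot separate cell composition from the knockdown, and these fits are a description. Fewer cells of a type and less RNA per cell cannot be told apart in these bulk samples. The part of cell composition in the levels of the 4 genes was not tested.

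Among neuronal markers, 0 of 9 general neuron genes and 0 of 12 striatal projection neuron genes were in the table, and their levels were not analysed here. Whether the 4 genes were read from neurons could therefore not be checked against such markers. Of 9 interneuron markers, 2 were in the table and 2 were called higher (39.0% of all listed genes), with a median log2 fold change of 1.31. Slc5a7, the choline transporter of cholinergic neurons, rose by 0.75 ± 0.28 (log2 ± SE, adjusted p = 0.0376 in edgeR), and Pvalb rose by 1.88 ± 0.61 (adjusted p = 0.0256 in edgeR), from 5.19 to 20.2 mean normalized counts. Fitted beside the glial marker score, their log2 fold changes were 0.61 for Slc5a7 (adjusted p = 0.354 in edgeR) and 2.67 for Pvalb (adjusted p = 0.135 in edgeR).

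Interferon response genes also differed between the groups. Of 15 genes, 14 were in the table and 13 were called higher in edgeR (39.0% of all listed genes), with a median log2 fold change of 1.15. In the fit with the glial term 1 was called higher (3.62% of all listed genes), Mx1 at 1.54, and the median was 0.67. Their summed normalized counts, with Ifit3 the most abundant, were 102790 in knockdown sample 4, 98817 in sample 6, 88095 in sample 8, 58102 in sample 10 and 103813 in sample 22. The control sum ran from 14842 in sample 7 to 81453 in sample 3, with a median of 36182. Control sample 3 was thus above knockdown sample 10. Its normalized counts of Syt4, Prph, Gdnf and Cacng5 were 86.8, 6.20, 0 and 288. Since these genes were chosen on the difference between the groups, nothing is read from setting these counts beside the interferon sum. The part of the interferon response in the levels of the 4 genes was not tested.

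Sample numbers run from 3 to 10 and from 21 to 23, and the labels do not say whether this marks a batch. In samples 21 to 23 (n = 2 control and 1 knockdown), the mean normalized counts of control and knockdown were 125 and 890.4 for Syt4, 3.75 and 35.8 for Prph, 0 and 39.1 for Gdnf, and 243 and 1093 for Cacng5. In samples 3 to 10 (n = 4 and 4) they were 179 and 841 for Syt4, 3.97 and 106 for Prph, 0.607 and 24.3 for Gdnf, and 265 and 814 for Cacng5. Every knockdown sample lay above every control sample for the 4 genes, so that both series had to show higher knockdown means. Nothing about a batch is read from these means.

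Prph and Gdnf are both on chromosome 15 but far apart. Other listed genes within 500 kb, named for their position and outside the rule for named genes, were Ccdc65 (log2 fold change 1.12), Prkag1 (-0.12) and Mcrs1 (-0.11) near Prph and Egflam (-0.68) near Gdnf. Near Syt4 and Cacng5 there were none.

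Because NF-Y binds CCAAT boxes, RefSeq promoter windows of 300 bases (GRCm38.p6, 250 bases before to 50 after the start) were searched for CCAAT on both strands (CCAAT or ATTGG). They were also searched for a cAMP response element (TGACGTCA) and for the AP-1 motif (TGANTCA, both strands), elements known from activity-regulated promoters. Windows of 3 of the 4 genes were matched by symbol, with 1 window for Prph, 2 for Gdnf and 2 for Cacng5, and Syt4 was not analysed here. Of these 5 windows, 2 held a CCAAT motif, compared with 37.4% of all 32851 windows. AP-1 was in 1 Cacng5 window (7.81% of all windows), and the cAMP response element was in none (1.79% of all windows). The window of Prph held none of these motifs.

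The stretches with a match are shown because they hold the letters of the NF-Y motif. They lie upstream of the annotated start of their own window and outside the exons of the gene. The positions are chr11:107915072-107915299 on the minus strand for Cacng5 and chr15:7813577-7813641 on the plus strand for Gdnf (GRCm38.p6). The other Gdnf window, chr15:7809798-7810097, belongs to an earlier start and held no CCAAT motif. The Gdnf stretch thus lies downstream of that earlier start. For Cacng5, capitals mark the AP-1 match and, nearer the start, the CCAAT box read on the opposite strand. For Gdnf they mark the CCAAT box. A match is a description of the sequence and not a measured binding site.
Cacng5: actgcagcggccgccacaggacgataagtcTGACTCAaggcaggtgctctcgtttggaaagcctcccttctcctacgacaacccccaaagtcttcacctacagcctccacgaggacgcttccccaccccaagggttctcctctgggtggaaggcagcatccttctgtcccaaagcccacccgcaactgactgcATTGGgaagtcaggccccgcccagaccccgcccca
Gdnf: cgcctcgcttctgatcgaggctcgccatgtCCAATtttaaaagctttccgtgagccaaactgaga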

How the data were processed

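RNA-seq values of sorted EmGFP-positive striatal cells were used (NT2 control, n = 6, and NF-YA/YC knockdown, n = 5), grouped by their labels. The authors counted single reads per gene with Strand NGS (mm9 per the submitters' processing notes, annotation not given in the sources used here) and deposited estimated counts, partly fractional and not scaled. The authors also deposited log2 values, scaled by sample with the median of each gene subtracted, from which their scaling factors were recovered. The table holds only genes with a deposited p-value under 0.05, and its p-value and fold change columns were not used. The reads carry no strand.

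Estimated counts were rounded and fitted over all 1767 genes with edgeR 4.0.16 (R 4.3.3, TMM, glmQLFit, glmQLFTest, Benjamini-Hochberg). Adjusted p-values therefore describe a table already selected by p-value, and TMM assumes mostly unchanged genes. The fit was also run on simulated counts, with the same dispersion for every gene and changes only in genes with a mean of at least 20. That setting is unlike this selected table, and nothing is read from it here. The SE given for an edgeR log2 fold change is its absolute value divided by the square root of the F statistic. It is thus no standard error from the model, which matters most for genes near the floor. DESeq2 1.42.0 was an alternative, with an SE from its own model, and gave a log2 fold change of 5.83 ± 1.05 for Gdnf. Ratios of summed counts have exact binomial intervals, and single counts exact Poisson intervals (95%). Exon lengths and overlaps are from GENCODE M21 (GRCm38), and promoters from RefSeq.

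The 4 genes and the 7 pathway and 8 marker lists were chosen with earlier results of these data known. Named genes are the 4 genes, the NF-Y subunits, listed genes in the table, and for each of the 4 genes the 3 with the highest within-group r among genes with a mean normalized count of at least 20. One gene that this rule takes for Cacng5 is not reported here.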

Additional observations from a re-analysis of the deposited data

Results flagged for a closer look

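For Gdnf, control sample 9 stood apart from the other 5 control samples, with 3 counts (2.43 normalized counts) against 0 in each of them, so that its gap to the nearest sample was 1 of the whole range on the log2 scale. Chance alone takes about 1 of 20 groups past the limit used (0.625 of the range for 6 samples), but that rate holds for continuous values, and in counts as low as these a single library above 0 always gives it. The value is at the floor of 3 counts per library.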

How the results depend on the processing

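The log2 fold changes of Syt4, Prph, Gdnf and Cacng5 stayed positive under every alternative that gave a value. Prph and Gdnf were dropped by the minimum highest count of 200, the expression filter of the methods, and have no value there. With the glial marker score as a term the log2 fold change was 2.81 for Prph and 6.83 for Gdnf, the number of genes called higher was 64 (689 without it) and the number called lower 15 (377 without it), and the cause was not tested. With the authors' scaling factors 836 genes were called lower, and 122 genes (202 with TMM) had every knockdown sample above every control sample, which goes with the median shift of -0.13. With the minimum of 200, which leaves 1329 genes, 180 were called lower. Leaving out each sample in turn, the log2 fold change ranged from 2.27 to 2.53 for Syt4, from 3.91 to 5.04 for Prph, from 5.29 to 7.79 for Gdnf and from 1.66 to 1.88 for Cacng5. Between 511 and 680 genes were then called higher, and between 208 and 441 lower, the latter being 241, 237 and 210 without control samples 5, 7 and 21, and 208, 227 and 249 without knockdown samples 4, 6 and 8. Both numbers then rest on fewer samples. With only samples 3 to 10 (n = 4 and 4), an alternative chosen for these counts after seeing the data, 150 genes were called higher and 57 lower, on fewer samples. The alternatives not given here were within the spread between samples for the 4 genes and within 1.5 times for the counts of all listed genes. Few counts limit Gdnf in all samples and Prph in the control samples.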
